A study of Homo sapiens with 2 samples.

Results

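The 53 genes described here are MYC and 52 genes that serve the making of ribosomes: 6 for RNA polymerase I transcription, 7 for the protein cores of the snoRNPs (small nucleolar RNA-protein particles), 4 for abundant nucleolar proteins, 22 for processing of the small ribosomal subunit and 13 for the large one. They were taken by gene symbol from a table of 60527 genes, and each symbol matched 1 entry. The series set a culture given JNJ-7706621 at 1.75 µM for 48 h against a culture given DMSO, the solvent, for the same time. Both cultures carry the label SK-MEL-2, a human melanoma line, and 1 library of total RNA from each was analysed. JNJ-7706621 is known to inhibit cyclin-dependent kinases and Aurora kinases. The series title concerns AUF1, the product of HNRNPD that binds RNA, and the decay of mRNA, and only mRNA levels are given here.

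Ribosomes are assembled in the nucleolus. RNA polymerase I copies the ribosomal DNA into a long precursor, snoRNPs modify its nucleotides, and large processing complexes fold, trim and separate it into the RNAs of the small and the large subunit. MYC, a transcription factor that binds DNA as a dimer with MAX, is known for raising the transcription of many genes on this path, and its preferred site, the E-box, has the core CACGTG.

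With the 1 library per group analysed here, no difference below has a replicate check, and none was tested. Values are FPKM, fragments per kilobase of exon and per 1000000 mapped fragments, as the authors deposited them. Intervals in brackets after a ratio are 95% counting intervals, which cover counting error only and not the spread between cultures. The library totals were 22817719 reads for JNJ-7706621 and 23377161 for DMSO. Melanocyte genes were low in both libraries while epithelial genes were abundant: 7 melanocyte markers summed to 6.25 FPKM in the JNJ-7706621 library and 4.92 FPKM in the DMSO library, while 5 epithelial markers summed to 1979 FPKM in the JNJ-7706621 library and 1962 FPKM in the DMSO library. Of the 7, MITF and PMEL alone had a mean FPKM of at least 1. No read was counted for TYR, a level that with a floor of 3 reads may be as high as 0.0436 FPKM in the JNJ-7706621 library and 0.0425 FPKM in the DMSO library. SOX10 had 0 reads in the JNJ-7706621 library and 1 read in the DMSO library, so the cultures are called by their label only. Markers of fibroblasts and of blood cells, 4 each, all had a mean FPKM under 1, but some markers differed between the libraries. The fibroblast markers summed to 1.23 FPKM in the JNJ-7706621 library and 0.222 FPKM in the DMSO library, with LUM at 49 reads in JNJ-7706621 and 5 reads in DMSO, and the blood markers summed to 0.854 FPKM in JNJ-7706621 and 0.447 FPKM in DMSO. Among the other lists, the ratio was 1.86 (1.55 to 2.24) for PMEL, 1.36 (1.32 to 1.40) for CDH1 and 1.39 (1.28 to 1.51) for KRT19. MITF went the other way at 0.856 (0.744 to 0.985), as did KRT8 at 0.976 (0.968 to 0.984). EPCAM had a ratio of 1.07 (1.02 to 1.12) and KRT18 one of 1.005 (0.995 to 1.015). Their part in the members' differences was not tested. In bulk RNA, fewer cells of a type and less RNA per cell cannot be told apart.

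No member differed by as much as 2-fold, and most of those measured were slightly higher in the JNJ-7706621 library. Of the 53 members, 52 had a mean FPKM of at least 1, and NOP2 did not. The log2 difference, log2(FPKM + 1) in JNJ-7706621 minus log2(FPKM + 1) in DMSO, reached 1 in 0 members and -1 in 0 members, against 2.39% and 1.36% of the 13241 genes at a mean FPKM of 1 or more. At a smaller step of 0.5 in size, 2 members were higher, LTV1 and RRP7A, against 11% of all genes, and 1 was lower, UBTF, against 9.75%. UTP20 at -0.498, UTP4 at 0.485 and BOP1 at 0.490 lay just outside this step.

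The log2 difference was above 0 in 35 of 52 members (67.3%), against 49.6% of all genes, and below 0 in 17 (32.7%), against 50.4%. The members' median was 0.12, with the middle of the distribution running from -0.03 to 0.28 (lower and upper quartile), whereas all genes had a median of -0.003 and quartiles of -0.25 and 0.26. The counting interval of the FPKM ratio lay above 1 in 27 members (51.9%), below 1 in 8 (15.4%) and held 1 in 17 (32.7%). Among all genes with reads these shares were 32.8%, 33.2% and 34.1%, and among protein-coding genes 36%, 35.8% and 28.3%. The members were better covered than most genes, with a median of 3440 reads over both libraries against 1139, so their intervals are narrower. Together the 52 members took 0.647% of the reads in the JNJ-7706621 library and 0.609% in the DMSO library. For comparison between libraries, GAPDH had a ratio of 0.965 (0.958 to 0.973), ACTB one of 0.746 (0.736 to 0.756) and HNRNPD one of 0.774 (0.745 to 0.803).

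**Figure D1:**
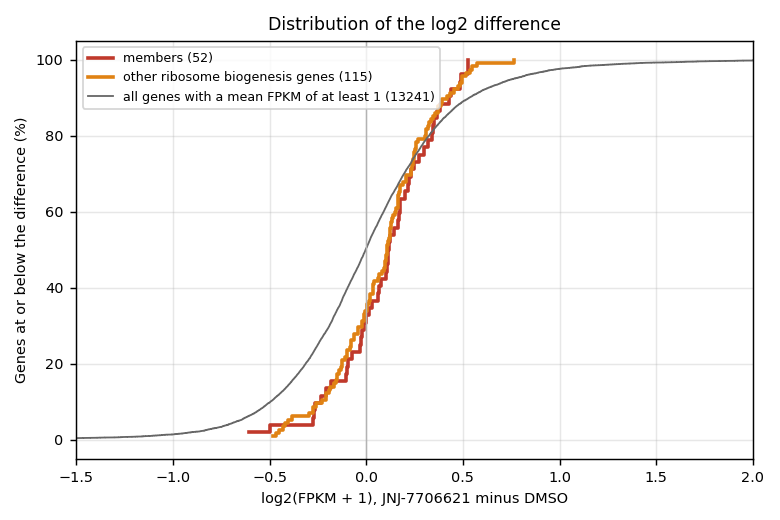
Cumulative share of genes (y axis, %) at or below each log2 difference, JNJ-7706621 minus DMSO (x axis), for the 52 members, 115 other ribosome biogenesis genes and all 13241 genes at a mean FPKM of 1 or more. The first 2 curves lie close together and cross the middle near 0.12 and 0.11, to the right of all genes, and neither reaches a difference of 1 in size.

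The 4 promoters below are printed because they belong to the 2 highest and the 2 lowest members by log2 difference that have a promoter entry. Each runs 5′ to 3′ from 250 bases before to 50 bases after the annotated start, from RefSeq on GRCh38.p14, in lower case with CACGTG in capitals. LTV1 lies at chr6:143843088-143843387 on the plus strand, RRP7A at chr22:42519747-42520046 on the minus strand, UBTF at chr17:44219626-44219925 on the minus strand, and UTP20 at chr12:101279855-101280154 on the plus strand. UBTF has another entry, which is not shown.
LTV1: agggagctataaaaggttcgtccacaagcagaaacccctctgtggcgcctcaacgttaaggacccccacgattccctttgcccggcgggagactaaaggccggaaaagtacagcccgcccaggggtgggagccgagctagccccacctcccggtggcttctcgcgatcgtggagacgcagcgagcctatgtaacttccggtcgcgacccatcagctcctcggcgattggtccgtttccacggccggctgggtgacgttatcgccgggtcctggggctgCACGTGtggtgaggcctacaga
RRP7A: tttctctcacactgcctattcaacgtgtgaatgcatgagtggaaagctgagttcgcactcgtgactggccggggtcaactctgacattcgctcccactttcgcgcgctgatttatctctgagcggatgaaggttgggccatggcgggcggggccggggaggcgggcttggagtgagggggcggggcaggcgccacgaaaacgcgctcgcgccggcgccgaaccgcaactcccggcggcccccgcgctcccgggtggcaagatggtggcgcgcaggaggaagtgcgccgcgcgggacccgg
UBTF: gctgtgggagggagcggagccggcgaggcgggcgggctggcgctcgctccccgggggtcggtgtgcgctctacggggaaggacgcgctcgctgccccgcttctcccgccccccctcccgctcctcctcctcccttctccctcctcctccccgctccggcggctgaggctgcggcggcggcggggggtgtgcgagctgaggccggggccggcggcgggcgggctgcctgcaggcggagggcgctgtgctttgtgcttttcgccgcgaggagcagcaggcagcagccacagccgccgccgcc
UTP20: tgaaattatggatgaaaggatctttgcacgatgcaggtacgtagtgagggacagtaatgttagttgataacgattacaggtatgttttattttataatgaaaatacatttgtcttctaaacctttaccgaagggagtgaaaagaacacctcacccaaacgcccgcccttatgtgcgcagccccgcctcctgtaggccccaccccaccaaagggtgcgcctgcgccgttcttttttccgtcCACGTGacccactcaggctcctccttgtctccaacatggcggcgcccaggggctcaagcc

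CACGTG reads the same on both strands. In LTV1, one of the highest members, it starts 28 bases after the start site, and in UTP20, one of the lowest, 10 bases before it. The windows of RRP7A and UBTF hold 0 copies. Promoter entries were found for 44 of the 53 members, 51 entries in all, and not for MYC, NOLC1, BOP1, RRP1B, NOP58, RRS1, UTP23, POLR1E and RRP12. CACGTG was present in 17 of the 51 (33.3%), each of another gene, against 7.26% of all 35116 promoters of this length and 9.72% of those of genes at a mean FPKM of 1 or more. In 16 of the 17 a copy began within 100 bases of the start. The related core CACGCG, searched on both strands and unable to overlap CACGTG, was in 31.4% of the members' promoters and 17.6% of those of genes at a mean FPKM of 1 or more.

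The motif did not divide the members by direction. Among members with CACGTG, 11 of 16 with a mean FPKM of at least 1 lay above 0, and their median log2 difference was 0.19, with a range of -0.50 to 0.53. Among those with a promoter entry and no CACGTG, 17 of 27 lay above 0, with a median of 0.07 and a range of -0.61 to 0.53. Over all genes at a mean FPKM of 1 or more the medians were 0.01 with the motif (1113 genes) and -0.003 without it (7448 genes). A match of letters is a description and shows no binding.

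MYC itself stood at 33.6 FPKM in the JNJ-7706621 library and 27.6 FPKM in the DMSO library. The gene lies at positions 127735434 to 127741434 on chromosome 8 (GRCh38, plus strand), and no exon of another gene overlaps its exons. Its read numbers rest on an exon length that was not fixed by the files alone. With the shortest exon length that fits within 2-fold of the one used, the counting interval of its ratio would be 1.14 to 1.30. MAX, the obligate partner of MYC, stood at 11.0 FPKM in the JNJ-7706621 library and 12.1 FPKM in the DMSO library. MXI1, MNT and MGA, which compete with MYC for MAX or for its sites, were lower, with log2 differences of -0.47, -0.32 and -0.31. Other competitors, MXD3, MXD1 and MXD4, were higher at 0.33, 0.23 and 0.13. Over 40.4% of its exon length MXD3 is overlapped by other genes. Of 12 genes of this network, 9 had a mean FPKM of at least 1. Of these, 5 lay above 0 and 4 below, against 49.6% and 50.4% of all genes. Their median was 0.02. Of the paralogs of MYC, MYCN was listed at 0 in both libraries, and MYCL stood at 0.156 FPKM in JNJ-7706621 and 0.287 FPKM in DMSO.

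Of the 6 RNA polymerase I genes, 4 had an interval of the ratio above 1, 1 held 1 and 1 lay below it (all genes with reads: 32.8%, 34.1% and 33.2%). The last, UBTF, had the largest log2 difference in size of the 52 members measured. UBTF, the factor that opens and marks the ribosomal DNA for polymerase I, stood at 12.3 FPKM in the JNJ-7706621 library (1961 reads) and 19.2 FPKM in the DMSO library (3143 reads). Its ratio was 0.639 (0.604 to 0.677) and its log2 difference -0.61. The gene lies at 44205033 to 44221626 on chromosome 17, minus strand, and 3.62% of its exon length overlaps exons of another gene. POLR1A, the largest catalytic subunit, went the other way at 9.93 FPKM in JNJ-7706621 and 7.39 FPKM in DMSO, a ratio of 1.34 (1.27 to 1.42). The second largest subunit, POLR1B, stood at 8.06 FPKM in JNJ-7706621 and 7.39 FPKM in DMSO. POLR1E, a subunit that acts in initiation and elongation, had a ratio of 1.17 (1.09 to 1.27). POLR1C and POLR1D, which polymerase I shares with polymerase III, had log2 differences of 0.06 and 0.16, and the interval of POLR1C held a ratio of 1. The median over the 6 genes was 0.14.

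Among 10 other RNA polymerase I genes the median was -0.05, with 4 above 0 and 6 below, against 49.6% and 50.4% of all genes. TCOF1, the nucleolar protein treacle that works with UBTF on ribosomal DNA, stood apart from the rest of that list at 10.4 FPKM in the JNJ-7706621 library and 5.73 FPKM in the DMSO library, a ratio of 1.82 (1.71 to 1.94). TAF1A, a subunit of the promoter factor SL1, had a log2 difference of 0.23. The other SL1 subunit named here, TAF1D, and the polymerase subunit ZNRD1 both had -0.13. The 22 genes of RNA polymerase III, which makes the small ribosomal RNA of the large subunit and tRNAs, had a median of 0.01. MAF1, the repressor of that polymerase, had a log2 difference of -0.46, POLR3G, a subunit of proliferating and embryonic cells, one of 0.45, and the factors GTF3C1 and GTF3A ones of 0.41 and 0.35.

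**Figure D2:**
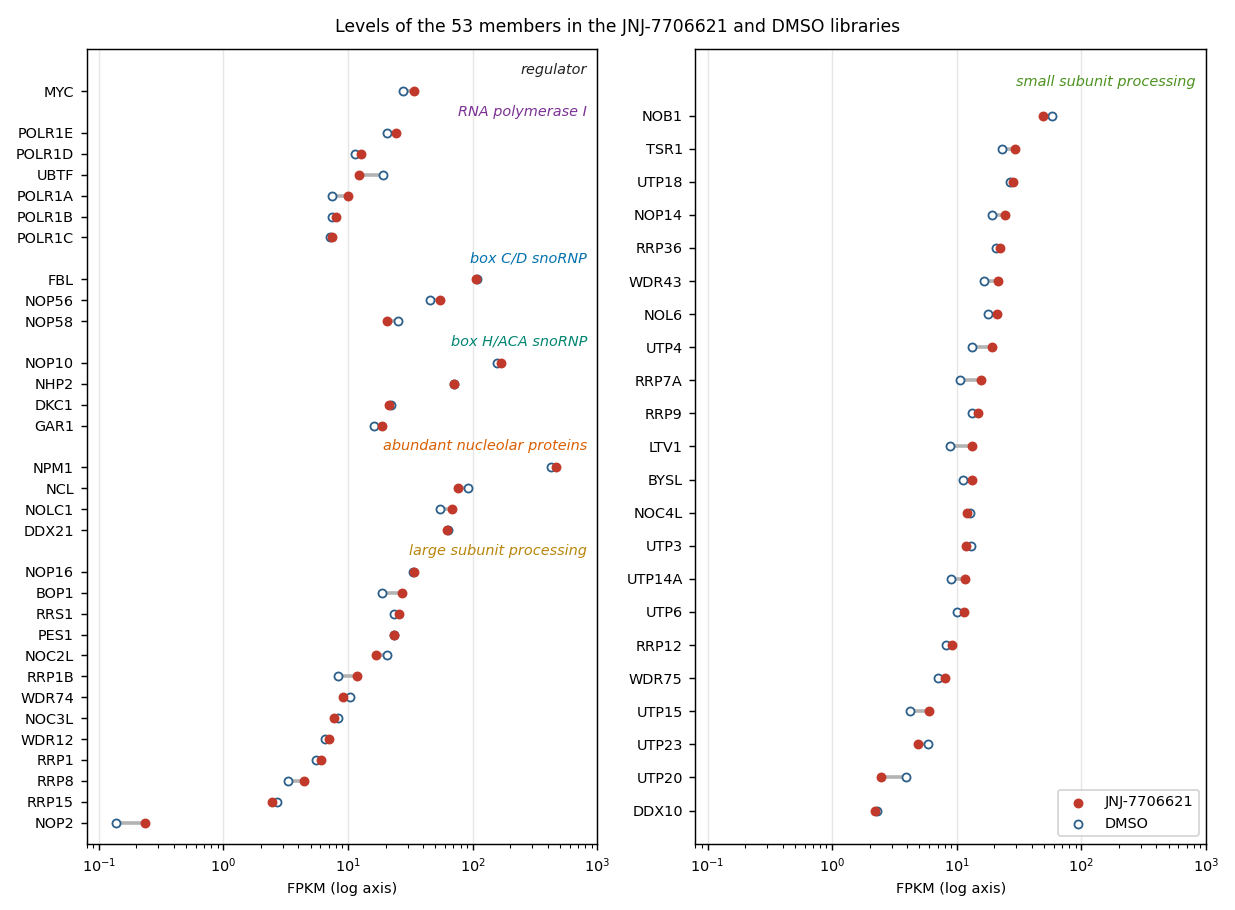
FPKM of each of the 53 members on a log axis, filled red for the JNJ-7706621 library and open blue for the DMSO library, grouped by role and ordered by level. NPM1 is the highest, at 463 FPKM in JNJ-7706621 and 425 FPKM in DMSO, and NOP2 the lowest, at 0.234 FPKM in JNJ-7706621 and 0.137 FPKM in DMSO, and the distance between the libraries is small beside the distance between genes.

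The box C/D snoRNP proteins, which belong to particles that guide methylation of ribosomal RNA, did not move together. FBL, the methyltransferase fibrillarin, stood at 107 FPKM in the JNJ-7706621 library and 108 FPKM in the DMSO library. NOP56 stood at 54.5 FPKM in JNJ-7706621 and 45.7 FPKM in DMSO, a ratio of 1.19 (1.15 to 1.24). Its scaffold partner NOP58 stood at 20.5 FPKM in JNJ-7706621 and 24.99 FPKM in DMSO, a ratio of 0.820 (0.766 to 0.877). Thus the paired scaffold genes differed in opposite directions while fibrillarin was level within counting error. Other genes, most of all the snoRNA gene SNORA51, overlap NOP56 over 8.74% of its exons.

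The box H/ACA proteins, which belong to particles that guide pseudouridylation and also stabilise telomerase RNA, were close to level. DKC1, the pseudouridine synthase dyskerin, stood at 21.4 FPKM in the JNJ-7706621 library and 22.0 FPKM in the DMSO library. NHP2 stood at 71.1 FPKM in JNJ-7706621 and 70.4 FPKM in DMSO, and 27.4% of its exon length overlaps exons of other genes, most of all RMND5B on the opposite strand. The strand setting of the counting is not given, so reads of such pairs may not be separable. The intervals of both held a ratio of 1. NOP10, the smallest core protein, stood at 170 FPKM in JNJ-7706621 and 156 FPKM in DMSO, and GAR1 at 18.6 FPKM in JNJ-7706621 and 16.1 FPKM in DMSO, a ratio of 1.16 (1.05 to 1.28). These proteins form 1 particle, yet on the FPKM scale, which is per length, the level of NOP10 was 9.11 times that of GAR1 in the JNJ-7706621 library and 9.73 times in the DMSO library.

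The 10 other snoRNP and assembly genes had a median of 0.13, and 8 lay above 0, against 49.6% of all genes. NUFIP1, RUVBL1 and SHQ1, which assemble the particles, had log2 differences of 0.33, 0.26 and 0.24. ZNHIT6, an assembly factor of box C/D particles, was lower at 2.38 FPKM in JNJ-7706621 and 3.67 FPKM in DMSO, a ratio of 0.649 (0.565 to 0.745).

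Of the 4 genes of abundant nucleolar proteins, 2 had an interval of the ratio above 1, 1 lay below it and 1 held 1. Among all genes with reads these shares were 32.8%, 33.2% and 34.1%. NCL, nucleolin, stood at 75.6 FPKM in the JNJ-7706621 library and 91.4 FPKM in the DMSO library, a ratio of 0.826 (0.806 to 0.847). NPM1, nucleophosmin, stood at 463 FPKM in JNJ-7706621 and 425 FPKM in DMSO, a ratio of 1.09 (1.07 to 1.10). NOLC1, which carries snoRNPs between nucleolus and Cajal bodies, was the highest of the group by ratio at 1.23 (1.19 to 1.28), and the helicase DDX21 was level at 0.986 (0.954 to 1.02). NPM1 is uncertain because it shares sequence with 46 pseudogene entries in the table. The highest of these was listed at 72.4 FPKM in the JNJ-7706621 library and 81.7 FPKM in the DMSO library, so reads may be split among the copies.

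**Figure D3:**
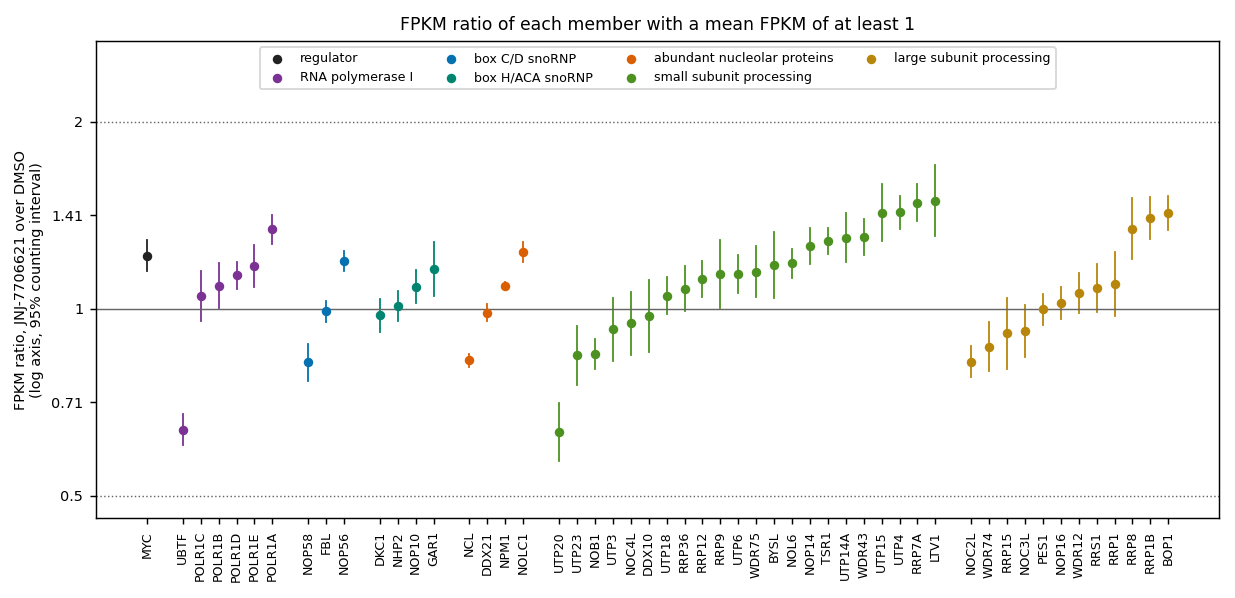
FPKM ratio of JNJ-7706621 over DMSO (log axis) for the 52 members with a mean FPKM of at least 1, by role, with 95% counting intervals as bars and dotted lines at 0.5 and 2. All points lie between 0.634 (UTP20) and 1.49 (LTV1). Points above 1.3 lie in the small subunit group (22 genes), the large subunit group (12 genes) and the RNA polymerase I group (6 genes).

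The small subunit processing genes held both members past 0.5 on the higher side. LTV1, an export and maturation factor of the pre-small subunit, stood at 13.2 FPKM in the JNJ-7706621 library (559 reads) and 8.86 FPKM in the DMSO library (384 reads), a ratio of 1.49 (1.31 to 1.70). RRP7A, part of the early processome, stood at 15.6 FPKM in JNJ-7706621 and 10.6 FPKM in DMSO, a ratio of 1.48 (1.38 to 1.59). Other genes overlap LTV1 over 34.8% of its exons and RRP7A over 15.9%. For RRP7A the exon length that fit was 1.40 times the annotated one, the highest of the members, so its overlap is uncertain. Of the 22 genes, 16 lay above 0 and 6 below, against 49.6% and 50.4% of all genes, and the median log2 difference was 0.17. The interval of the ratio lay above 1 in 14, below 1 in 3 and held 1 in 5. Among all genes with reads these shares were 32.8%, 33.2% and 34.1%.

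UTP4, UTP15, WDR43 and WDR75 belong to the subcomplex that binds the nascent precursor first and, in human cells, also serves its transcription. UTP4 stood at 19.0 FPKM in the JNJ-7706621 library and 13.3 FPKM in the DMSO library, a ratio of 1.43 (1.34 to 1.52). UTP15 stood at 6.03 FPKM in JNJ-7706621 and 4.22 FPKM in DMSO, and WDR43 at 21.5 FPKM in JNJ-7706621 and 16.5 FPKM in DMSO. WDR75 had the smallest ratio of these 4, 1.15 (1.04 to 1.26), and all 4 were higher in JNJ-7706621. This grouping was chosen after the values were seen, and 2 other genes of the same subcomplex differed from each other, NOL11 with a log2 difference of 0.26 and HEATR1 with -0.42.

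Late-acting factors went both ways. TSR1, a GTPase-like protein that occupies the pre-small subunit, stood at 29.5 FPKM in the JNJ-7706621 library and 22.9 FPKM in the DMSO library, a ratio of 1.29 (1.23 to 1.35). NOB1, the endonuclease that makes the final cut of the small-subunit RNA, stood at 48.7 FPKM in JNJ-7706621 and 57.6 FPKM in DMSO, a ratio of 0.846 (0.801 to 0.894). Other genes overlap TSR1 over 20.8% of its exons and NOB1 over 20.2%. BYSL, which acts between early and late steps, and the export factor RRP12 had log2 differences of 0.22 and 0.14.

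UTP20, a very large scaffold protein, was the lowest of the group at 2.49 FPKM in the JNJ-7706621 library (569 reads) and 3.92 FPKM in the DMSO library (920 reads), a ratio of 0.634 (0.570 to 0.704). UTP23, whose yeast counterpart helps to release a snoRNA, was also lower at 4.92 FPKM in JNJ-7706621 and 5.85 FPKM in DMSO. UTP3, NOC4L and the helicase DDX10 lay below 0 by 0.10 or less, and their intervals held a ratio of 1. Among the rest, UTP14A and NOP14 had ratios of 1.30 (1.19 to 1.43) and 1.26 (1.18 to 1.35). NOL6, RRP9, UTP6, RRP36 and UTP18 had log2 differences from 0.07 to 0.23.

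Among 34 other small subunit processing genes at a mean FPKM of 1 or more, 21 lay above 0, against 49.6% of all genes. The median was 0.06. PDCD11, a large scaffold protein, stood at 18.8 FPKM in the JNJ-7706621 library and 12.3 FPKM in the DMSO library, a ratio of 1.53 (1.44 to 1.61). The helicase DHX37, the kinase RIOK1 and the processome protein RCL1 had log2 differences of 0.51, 0.49 and 0.47. On the lower side MPHOSPH10 stood at 6.05 FPKM in JNJ-7706621 and 8.64 FPKM in DMSO, named after its value was seen.

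The large subunit processing members were nearer to 0 than the small subunit members, with a median log2 difference of 0.05 and 7 of 12 above 0. The interval lay above 1 in 3, below 1 in 2 and held 1 in 7. Over all genes 49.6% lay above 0, and the interval shares were 32.8%, 33.2% and 34.1%. BOP1, which forms a complex with PES1 and WDR12, stood at 26.9 FPKM in the JNJ-7706621 library and 18.9 FPKM in the DMSO library, a ratio of 1.43 (1.34 to 1.52). Its partners did not follow: PES1 stood at 23.4 FPKM in both libraries, and WDR12 had a ratio of 1.06 (0.985 to 1.14). RRP1B, a nucleolar protein that also binds chromatin, stood at 11.7 FPKM in JNJ-7706621 and 8.38 FPKM in DMSO, while its paralog RRP1 had a ratio of 1.10 (0.975 to 1.23). RRP8, a methyltransferase of the large-subunit RNA, had a ratio of 1.35 (1.20 to 1.51).

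On the lower side, NOC2L, an inhibitor of histone acetyltransferases whose yeast counterpart moves the pre-large subunit out of the nucleolus, stood at 16.9 FPKM in JNJ-7706621 and 20.5 FPKM in DMSO, a ratio of 0.823 (0.777 to 0.871). WDR74 stood at 9.06 FPKM in JNJ-7706621 and 10.4 FPKM in DMSO, and 22.3% of its exon length overlaps exons of other genes. NOC3L and RRP15 had log2 differences of -0.11 and -0.09, and NOP16 and RRS1 ones of 0.03 and 0.11, all with intervals that held 1. For RRS1 another exon length fits as well, and its interval would be 1.004 to 1.16, just above 1.

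NOP2, a methyltransferase of the large-subunit RNA known as an abundant proliferation antigen, had almost no reads. It stood at 0.234 FPKM on 25 reads in the JNJ-7706621 library and 0.137 FPKM on 15 reads in the DMSO library. Over 54.4% of its exon length it overlaps exons of other genes, most of all AC006064.6, an annotated gene on the same strand that also spans CHD4 and is itself listed at 0 in both libraries. CHD4, a chromatin remodeller, was likewise low, at 0.845 FPKM in JNJ-7706621 and 0.596 FPKM in DMSO. How reads in shared exons were assigned is not given in the sources used here and was not tested, so NOP2 is uncertain.

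Of 45 other large subunit processing genes at a mean FPKM of 1 or more, 30 lay above 0, against 49.6% of all genes. The median was 0.11, against 0.06 for the other small subunit processing genes. This order is the reverse of that among the members, so the contrast between the subunits did not hold in the other lists. URB2, known from yeast as an early large-subunit factor, stood at 6.21 FPKM in JNJ-7706621 and 3.98 FPKM in DMSO, and EBNA1BP2 and PAK1IP1 had log2 differences of 0.50 and 0.48. NOP53, which recruits the exosome to the pre-large subunit, was lower at 42.0 FPKM in JNJ-7706621 and 59.0 FPKM in DMSO, a ratio of 0.711 (0.686 to 0.737). The 16 genes of pre-rRNA nucleases and the nuclear exosome had a median of 0.12, and 13 lay above 0, against 49.6% of all genes. ISG20L2, an exonuclease, and EXOSC2 had log2 differences of 0.55 and 0.46, EXOSC7 one of 0.24, and the exosome helicase MTREX one of -0.26.

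A last list held genes known to respond to MYC, most of them for metabolic enzymes. Of its 19 genes 16 were above 0, against 49.6% of all genes, and the median log2 difference was 0.25, against -0.003. Like the other lists, it was chosen with earlier results of these data known. NME1, a nucleoside diphosphate kinase, stood at 24.6 FPKM in the JNJ-7706621 library and 13.8 FPKM in the DMSO library. GART and PPAT, enzymes of purine synthesis, had ratios of 1.49 (1.43 to 1.56) and 1.52 (1.35 to 1.72), and the transferrin receptor gene TFRC one of 1.37 (1.32 to 1.42). NME1 shares sequence with its neighbour NME2, which was at -0.15, so the values of both are uncertain.

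**Figure D4:**
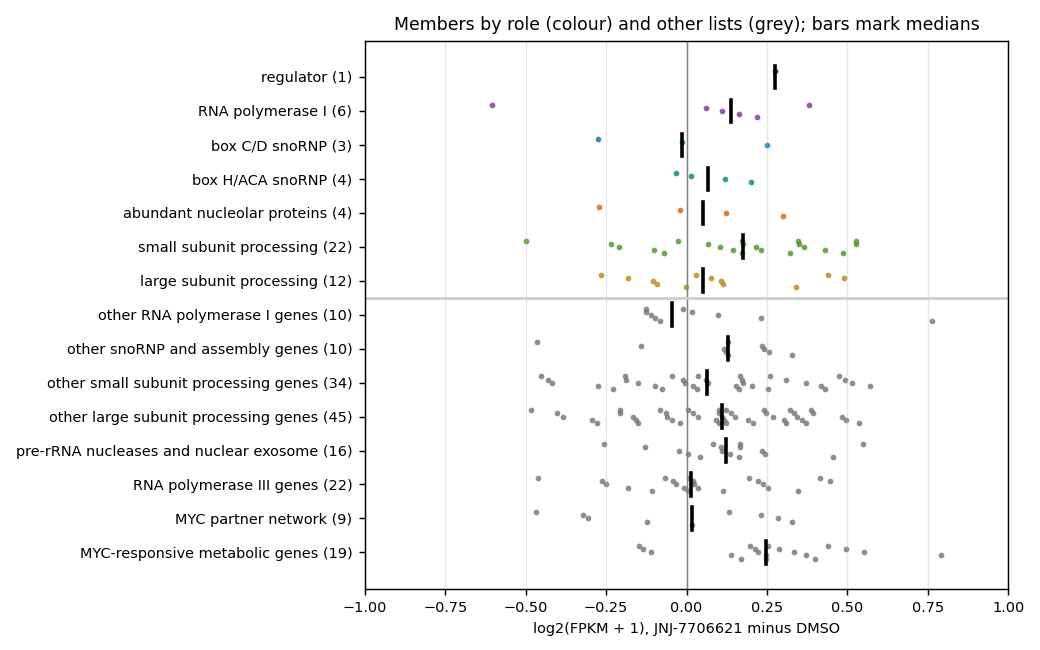
Log2 difference, JNJ-7706621 minus DMSO, of each gene with a mean FPKM of at least 1 (points), for the 7 roles of the members (colour, top) and 8 other lists (grey), with medians as black bars and the number of genes in parentheses. Medians run from -0.05 in the other RNA polymerase I genes to 0.27 for MYC alone, and points of most rows lie on both sides of 0.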

How the data were processed

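RNA of 2 cultures, 1 per group, was analysed, with groups taken from the labels. The authors deposited FPKM values for 60527 genes in 4 columns, per the file headers, and 2 of them, whose names repeat those of the columns used but end in 2, match no sample studied here and were not used. Whether they hold second libraries of the groups was not examined, so the lack of a replicate check is one of the columns analysed here. The submitters' processing notes name hg38 and edgeR. No source used here gives the aligner, counter, annotation or strand setting.

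Reads were recovered from the FPKM values. The product of FPKM, exon length and library total has to be whole for both libraries (within 0.0001 reads), and exon lengths of GENCODE release 29 (GRCh38) or the nearest length that fits, within 0.25 to 4 times, gave reads for 27805 of 28014 annotated genes above 0. These were 99.7% of each total. Among the members 18 had the annotated length, 35 another, and for 6 of those 35 a further length within 2-fold would also fit. The FPKM ratio does not depend on the length, and no count test was run. Intervals are exact Clopper-Pearson, conditional on the sum of reads.

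The log2 difference uses a pseudocount of 1, so it understates differences of genes with low FPKM, and genes entered with a mean FPKM of at least 1. Named are MYC, every member past 0.5, the highest and lowest of each role and up to 4 genes with the largest difference of each other list; others were named after their values were seen. The members and lists were chosen with earlier results of these data known. Calculations ran in Python 3.11.15 with pandas 2.3.3 and scipy 1.17.1. They were tested on simulated libraries with known ratios and counting error only, in which each exon length was given. The search for a length that fits was therefore not tested.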

Additional observations from a re-analysis of the deposited data

How the results depend on the processing

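The 8 alternatives were pseudocounts of 0.1 and 0.5, no filter on low values, a mean FPKM of at least 5, rescaling to a sum of 1000000, a common upper quartile, removal of the trend with exon length, and leaving out genes with over 25% exon overlap. The number of members past a log2 difference of 1 was 0 under each of them. The number above 0 ran from 33 of 50 to 36 of 53, and the members' median from 0.10 to 0.12. As a share it was lowest under both scalings, at 34 of 52, and highest at a mean FPKM of at least 5, at 34 of 48. Neither scaling moved the median of all genes by more than 0.02, to -0.014 with rescaling and -0.018 with the common upper quartile. The number at or above 0.5 was 5 with a pseudocount of 0.1 and 1 without genes of large exon overlap, which leaves out LTV1. The number at or below -0.5 was 2, in place of 1, with pseudocounts of 0.1 and 0.5, with rescaling and with the common upper quartile, where UTP20 joined UBTF. Over all genes, 1972 and 1895 of 13241 reached 0.5 and -0.5 with a pseudocount of 0.1, against 1459 and 1291 of 13241. With rescaling the numbers were 2252 and 2219 of 15964, because more genes then passed the filter. The MYC partner network had a median of 0.29 at a mean FPKM of at least 5, where 3 of its genes are left, 0.13 with the length trend taken off, and -0.05 without genes of large exon overlap, against 0.02. The RNA polymerase III median was -0.003 under both scalings, against 0.01. With the length trend taken off, POLR1A stood at 0.49 against 0.38, POLR1D at 0.26 against 0.16 and NPM1 at 0.09 against 0.12. Small differences of NHP2, DDX10 and NOP16 changed sign under rescaling, the common upper quartile or the length trend: NHP2 stood at -0.003 under both scalings, DDX10 at 0.03 and NOP16 at -0.02 with the length trend taken off. No paired analysis was possible because 1 library per group was analysed. Depth limits NOP2, with 25 and 15 reads.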
